A study of Rattus norvegicus with 6 samples.

Results

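The 8 genes described here, RT1-A1, RT1-A2, B2m, Tap1, Tap2, Tapbp, Psmb8 and Psmb9, encode the rat's classical major histocompatibility complex (MHC) class I molecule and the proteins that supply it with peptides. They were taken by name from the 32883 genes of the 6 matrices, and all 8 were detected. Single-cell RNA sequencing was done on cells of the digested pancreas, collected from a density gradient, of male Wistar rats, with 2 rats in each of 3 groups. Young rats were 2 months old and ate a normal diet. Old rats were 20 months old after 18 months on the normal diet, and HFHF-old rats were 20 months old after 18 months on a high-fat high-fructose (HFHF) diet. Each library was 1 rat, so all comparisons between groups set 2 rats against 2 or fewer, and the old rats enter both comparisons.

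An MHC class I molecule is a heavy chain, encoded in the rat by RT1-A genes, bound to the light chain beta-2 microglobulin and to a short peptide. Peptides are cut from cytosolic proteins by the proteasome, carried into the endoplasmic reticulum by the TAP transporter and loaded onto the heavy chain with the help of tapasin. Nearly all nucleated cells carry the molecule, interferons raise the genes together, and T cells and NK cells read it. The rat has a varying number of class I genes between strains and haplotypes, and Wistar is an outbred stock.

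Sequences upstream of 4 members are shown because most members hold interferon-type letters there and because the first pair is nearly alike. Each is the 250 bases before the annotated transcription start in RefSeq (build GRCr8), 5′ to 3′ on the gene's own strand. Capitals mark matches on either strand to the interferon-type letters GAANNGAAA, to a pair of GAAA runs with any 2 bases between them, or to an 11-base palindromic kappa-B motif. The first 2 patterns can overlap each other. The windows lie at chr20:4906959-4907208 (plus strand, RT1-A1), chr20:4872621-4872870 (plus strand, RT1-A2), chr3:129549080-129549329 (plus strand, B2m) and chr20:4668544-4668793 (minus strand, Tap1).
RT1-A1: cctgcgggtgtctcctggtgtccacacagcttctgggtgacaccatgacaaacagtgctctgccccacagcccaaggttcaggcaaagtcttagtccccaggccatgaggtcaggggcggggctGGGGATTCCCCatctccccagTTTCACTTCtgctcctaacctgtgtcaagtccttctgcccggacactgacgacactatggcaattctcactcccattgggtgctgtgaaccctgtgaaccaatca
RT1-A2: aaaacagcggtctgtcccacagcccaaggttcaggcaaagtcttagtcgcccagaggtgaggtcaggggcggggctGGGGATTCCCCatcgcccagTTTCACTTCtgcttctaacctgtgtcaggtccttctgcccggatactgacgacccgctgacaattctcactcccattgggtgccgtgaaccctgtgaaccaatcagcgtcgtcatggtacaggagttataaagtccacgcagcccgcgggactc
B2m: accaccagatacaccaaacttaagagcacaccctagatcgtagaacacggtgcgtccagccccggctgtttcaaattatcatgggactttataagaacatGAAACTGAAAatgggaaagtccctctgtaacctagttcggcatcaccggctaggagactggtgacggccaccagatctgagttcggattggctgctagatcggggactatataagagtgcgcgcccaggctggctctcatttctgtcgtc
Tap1: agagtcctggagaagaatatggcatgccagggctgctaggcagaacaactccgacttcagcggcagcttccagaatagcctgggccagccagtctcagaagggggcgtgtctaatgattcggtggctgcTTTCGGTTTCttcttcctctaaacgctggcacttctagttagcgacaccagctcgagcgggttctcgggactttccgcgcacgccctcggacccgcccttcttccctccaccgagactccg
Aligned with free ends over the 300 bases from 250 before to 50 after the start, which run past the letters printed here, RT1-A1 and RT1-A2 were identical at 232 of 252 aligned columns (92.1%). Both hold the kappa-B motif, which was found in 0.0627% of the 33469 rat promoters of the same length (250 bases before to 50 after the start). GAANNGAAA was found in the same 300-base window of 5 of the 8 members against 8.54% of promoters, and the pair of GAAA runs in 5 of 8 against 3.92%. At least 1 of these 2 was found in 7 of the 8 members, all but Psmb9, against 11.7% of promoters. The 300-base windows of Tap1 and Psmb9 lie on opposite strands and share 44 bases. A match is a match of letters, and no binding was measured.

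The matrices held 78024 barcodes, of which 75201 passed the filters, and 58078 of these fell into 19 classes named by their markers with the suffix "-like". Library totals ran from 77387928 to 166875258 unique molecular identifiers (UMIs), and 584 of 74615 barcode sequences occurred in at least 2 libraries. HFHF-old rat 2 stood apart, since 8204 of its 11716 cells were NK-like and only 4 were beta-like. HFHF-old rat 1 had no alpha-like cell and HFHF-old rat 2 had 2, so alpha-like cells had no HFHF-old value. Of 946 beta-like cells, 366 came from sub-clusters with few UMIs, which held 8.29% of the class's UMIs. Of 5490 T-like cells, 754 came from a cluster whose leading genes included the phagocyte genes Fcgr2b and Clec7a, with 24.7% of the T-like UMIs. All 8 detected beta markers, 10 of 10 endothelial, 10 of 10 NK, 12 of 12 T, 8 of 8 B and 7 of 8 alpha markers were more than 2 times the median of the other classes. Only 3 of the 8 alpha markers were highest in alpha-like cells.

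Levels are given as counts per 1000000 UMIs of the class in each rat (CPM), for classes with at least 10 cells in the rat. A gene's levels are compared between classes and rats and not with another gene's. All 8 members had their lowest or next to lowest mean level in beta-like cells among the 19 classes, Tap2 being slightly lower in PP-like cells. With hormone and enzyme UMIs taken out, beta-like cells stayed lowest for RT1-A1, RT1-A2, Psmb8 and Psmb9 and were among the 3 lowest classes for the others. Hormone transcripts took 58.3% to 83.0% of the UMIs of beta-like cells and 25.5% to 49.6% of those of alpha-like cells, and every other gene has a smaller share of UMIs there. They took at most 2.61% in endothelial-like and 0.645% in B-like cells.

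RT1-A1 encodes a class I heavy chain. Its mean level was highest in dendritic-like cells, at 1060 ± 741 CPM (SD, n = 6), and the rats ran from 451 to 2172. In macrophage-like cells it was 819 ± 546, in NK-like cells 678 ± 602, in endothelial-like cells 660 ± 478 and in T-like cells 590 ± 471. These spreads are as large as the gaps between the classes. Dendritic-like cells were nevertheless above macrophage-like cells in 5 of 6 rats, and T-like above B-like cells (353 ± 296) in 6 of 6. NK-like were above endothelial-like cells in only 3 of 6. At the low end, RT1-A1 was at 74.2 ± 62.1 in alpha-like cells (n = 4) and at 29.2 ± 28.9 in beta-like cells (n = 5). Alpha-like cells were above beta-like cells in 4 of 4 rats on this scale.

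RT1-A2, the neighbouring heavy chain gene, also was highest in dendritic-like and lowest in beta-like cells, with a narrower spread over rats. It was at 1274 ± 274 CPM in dendritic-like, 1077 ± 258 in macrophage-like, 939 ± 288 in endothelial-like, 842 ± 398 in NK-like and 806 ± 217 in T-like cells (SD, n = 6). Endothelial-like were above NK-like cells in 4 of 6 rats. B-like cells had 384 ± 169 (n = 6), alpha-like cells 92.99 ± 47.3 (n = 4) and beta-like cells 41.7 ± 15.1 (n = 5).

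B2m, the light chain shared by all class I molecules, was highest in endothelial-like cells. The endothelial-like values were 6822 and 7889 CPM in the young rats, 5600 and 9516 in the old rats, and 5137 and 8254 in the HFHF-old rats. NK-like cells followed at 6127 ± 1357 and T-like cells at 5858 ± 1385 (SD, n = 6). Endothelial-like were above NK-like cells in 5 of 6 rats, and NK-like above T-like cells in 5 of 6. B-like cells were lower, at 2908 ± 972. Beta-like cells were lowest, at 132 and 182 in the young rats, 205 and 325 in the old rats and 286 in HFHF-old rat 1. In alpha-like cells the 4 rats gave 327, 464, 507 and 571.

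**Figure D1:**
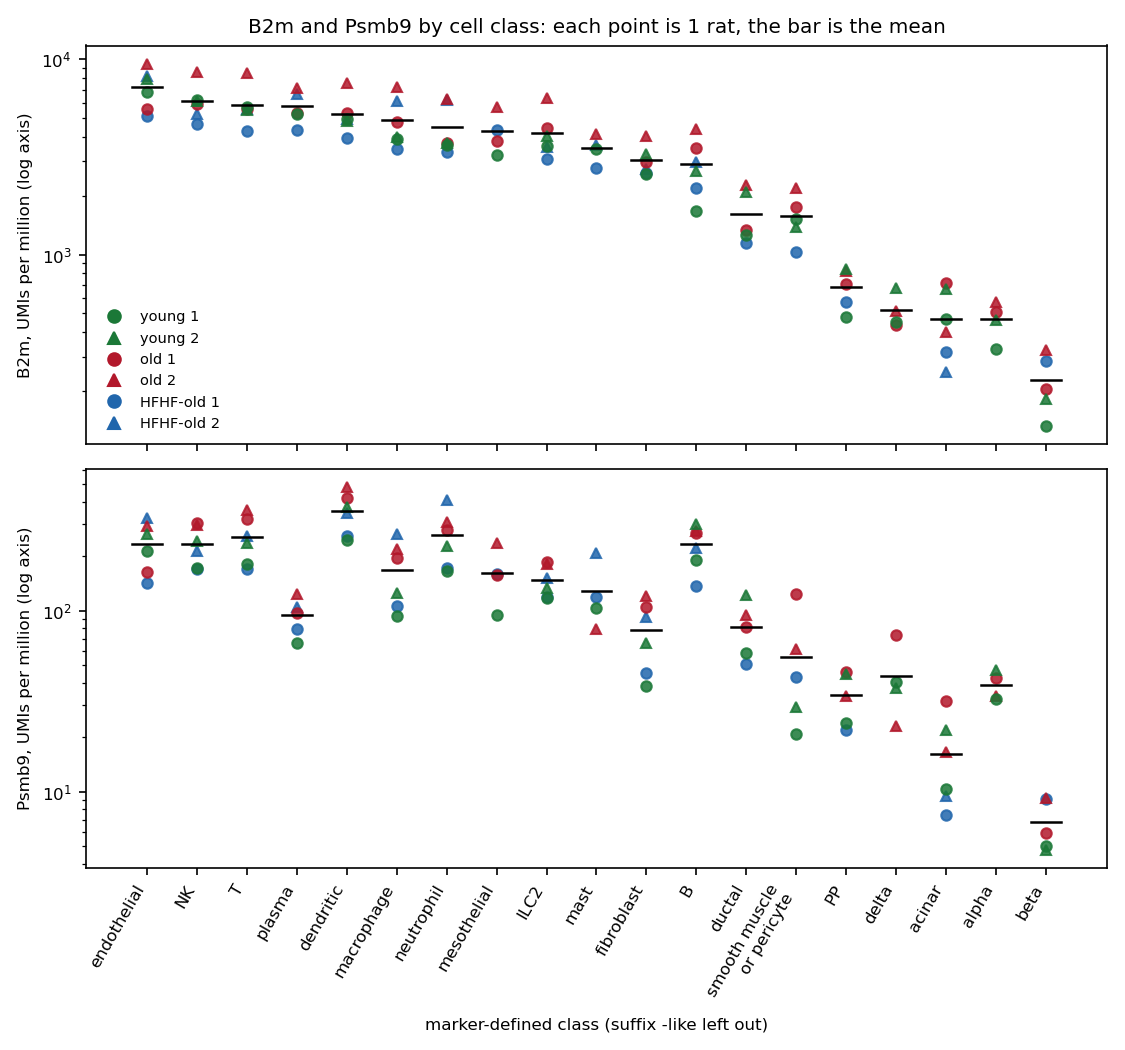
CPM (log axes) of B2m and Psmb9 in each of the 19 classes, ordered by mean B2m. Each point is 1 rat, coloured by group, and the bar is the mean over rats. B2m ran from a mean of 7203 in endothelial-like to 226 in beta-like cells, and both genes were lowest in beta-like cells.

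Tap1 and Tap2 encode the paired chains of the peptide transporter. Tap1 was at 90.9 ± 26.4 CPM in T-like, 87.8 ± 30.8 in endothelial-like, 83.1 ± 46.2 in B-like and 76.5 ± 15.4 in NK-like cells (SD, n = 6). The order of these classes was not held by the rats, since T-like were above endothelial-like cells in 3 of 6 and B-like above NK-like cells in 3 of 6. Alpha-like cells had 6.68 ± 2.44 (n = 4) and beta-like cells 2.70 ± 1.01 (n = 5). Tap2 was sparse. It was highest in endothelial-like cells, at 11.9 ± 7.52 from 106 UMIs over 6 rats, and at 0.59 ± 0.46 in beta-like cells from 17 UMIs over 5 rats.

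Tapbp encodes tapasin, which holds the empty heavy chain at the transporter. Its order differed from that of the other members. Plasma-like cells, which secrete antibodies, were highest at 256 ± 42.5 CPM (SD, n = 5). Their values were 217, 234, 301, 225 and 303, and they were above mesothelial-like cells, the next class at 85.2 ± 25.7 (n = 4), in 4 of 4 rats. Dendritic-like (62.9), NK-like (59.3), B-like (57.4), T-like (56.7), endothelial-like (53.5) and macrophage-like cells (48.2) lay within each other's spread. Beta-like cells had 5.43 ± 1.67 (n = 5).

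Psmb8 and Psmb9 encode subunits that replace constitutive ones in the immunoproteasome, the form induced by interferon. Psmb9 was highest in dendritic-like cells, at 354 ± 90.5 CPM, and stood at 254 ± 74.4 in T-like, 234 ± 73.3 in endothelial-like, 234 ± 59.3 in NK-like and 232 ± 61.5 in B-like cells (SD, n = 6). T-like were above endothelial-like cells in 3 of 6 rats, and NK-like above B-like cells in 3 of 6. In beta-like cells Psmb9 was at 5.03 and 4.78 in the young rats, 5.92 and 9.27 in the old rats and 9.10 in HFHF-old rat 1. Alpha-like cells were above these in every rat that had both, with 32.4, 47.2, 42.5 and 33.6. Psmb8 was sparse everywhere. It was at 14.7 ± 6.56 in B-like and 13.3 ± 2.07 in NK-like cells. Beta-like cells gave 4 Psmb8 UMIs in 5 rats and none in 3 of them. In young rat 1, 0 of 2982212 beta-like UMIs allows up to 1.01 CPM by counting error alone.

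Levels between classes were tested within rats on summed UMIs (edgeR quasi-likelihood test with trimmed-mean scaling, rat as a block, Benjamini-Hochberg over 13499 genes). A member was called at an adjusted p under 0.05. All 8 members rose in endothelial-like against beta-like cells, where 35.0% of all genes were higher and 32.8% lower. Psmb8 and Tap2 did not pass the low-count filter within beta-like cells and entered this fit through endothelial-like cells, where they are high, so only the other 6 can be read. All 6 rose, against 32.7% higher and 33.7% lower among the 8624 genes that passed within both classes. The log2 fold changes of these 6 had a median of 3.01, and that of all genes was 0.06. For B2m it was 3.07 ± 0.18 (SE, edgeR adjusted p = 5.32e-15), for RT1-A1 2.94 ± 0.20 and for RT1-A2 2.57 ± 0.17. Tap1 gave 3.08 ± 0.26, Tap2 2.32 ± 0.37, Psmb9 3.11 ± 0.19 and Tapbp 1.43 ± 0.20. Psmb8 gave 3.91 ± 0.61, which rests on 4 beta-like UMIs. With hormone and digestive enzyme UMIs taken out, B2m was still 7.496 to 12.3 times higher in endothelial-like cells in each of 5 rats, and Tapbp 2.21 to 3.34 times. Under library-size scaling the median of all genes moved to 1.95, so these changes are relative to the chosen scaling. Ptprc, the leukocyte marker CD45, was at 128 to 867 CPM in endothelial-like cells and at 1.91 to 8.62 in beta-like cells, and its part in the result was not tested.

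Between alpha-like and beta-like cells, only Psmb9 was called, with a log2 fold change of 1.25 ± 0.20 (SE, edgeR adjusted p = 1.48e-05). Of all genes 12.1% were higher and 13.2% lower in alpha-like cells. Psmb9 was higher in 4 of 4 rats, by 3.63 to 9.89 times in CPM and by 1.90 to 3.51 times with hormone and enzyme UMIs taken out. The other members depended on the scale. B2m was 1.76 to 2.54 times higher in alpha-like cells in 4 of 4 rats in CPM, but higher in only 1 of 4 once hormone and enzyme UMIs were taken out. Its tested log2 fold change was -0.15 ± 0.18 (edgeR adjusted p = 0.588). With library size alone it was 1.00, where the median of all genes was 1.11 in place of -0.02, and 7 of 8 members were then called, as were 66.1% of all genes as higher. Tap2, 1 of these 7, and Psmb8 did not pass the low-count filter within beta-like cells. Tapbp was 1.21 to 3.25 times higher in alpha-like cells in 4 of 4 rats in CPM, and at 0.533 to 0.949 of its beta-like level in 4 of 4 without hormone and enzyme UMIs. Its tested log2 fold change was -0.47 (edgeR adjusted p = 0.144), and with library size alone it turned to 0.64 (edgeR adjusted p = 0.0352). RT1-A2 likewise turned from -0.09 to 1.06 (edgeR adjusted p = 2.92e-05).

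NK-like and T-like cells, which both read class I molecules on other cells, gave no called member (0 of 8, edgeR), with 0 at an unadjusted p under 0.05 and 0 called by DESeq2. Of all genes 11.3% were higher and 16.0% lower in NK-like cells. The log2 fold changes ran from -0.27 for Tap1 (± 0.17, edgeR adjusted p = 0.284) to 0.10 for RT1-A1 (± 0.16). Tap1 was lower in NK-like cells in 5 of 6 rats, at 0.633 to 1.12 times the T-like level. This comparison depended on how T-like cells were drawn and on the floating-point setting, since members were called under the setting seen first. Without the T-like cluster led by phagocyte genes, an alternative chosen after seeing the data, Tap1 gave -0.59 (edgeR adjusted p = 0.00599) and Psmb9 -0.39 (edgeR adjusted p = 0.0395), and both were called.

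In B-like against T-like cells 4 of 8 members fell and 0 rose, where 20.2% of all genes were lower and 12.1% higher. B2m fell by 1.14 on the log2 scale (± 0.16 SE, edgeR adjusted p = 8.84e-07), with 0.294 to 0.631 of the T-like level over 6 of 6 rats. RT1-A2 fell by 1.23 ± 0.16, RT1-A1 by 0.88 ± 0.18 and Tap2 by 1.47 ± 0.43 (edgeR adjusted p = 0.00821). Tap2 rests on 10 B-like UMIs, is listed at 0 in 2 of the 6 rats and, like Psmb8, did not pass the low-count filter within B-like cells. Of the 6 members that did, 3 fell, where of the 4936 genes that passed within both classes 16.7% were lower and 20.6% higher. Psmb9 (-0.19), Psmb8 (0.05), Tapbp (-0.13) and Tap1 (-0.33) were not called, and the sign of Psmb8 turned under 9 of 18 alternatives. Tap1 was called, and lower, without likely doublets (-0.72, edgeR adjusted p = 0.0126), with the first of 2 other clustering seeds (-0.56, 0.0384) and without the T-like cluster led by phagocyte genes (-0.65, 0.0147), Psmb9 without that cluster (-0.44, 0.0301) and Tapbp without old rat 1 (-0.50, 0.0342). The seed and the cluster were chosen after seeing the data. With an estimate of free RNA subtracted, B2m (edgeR adjusted p = 0.113) and RT1-A1 (0.135) were no longer called. Over the alternatives run the log2 fold change was -1.35 to -0.99 for B2m and -1.18 to -0.73 for RT1-A1. The B-like sums were small, with 12 to 193 cells a rat.

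**Figure D2:**
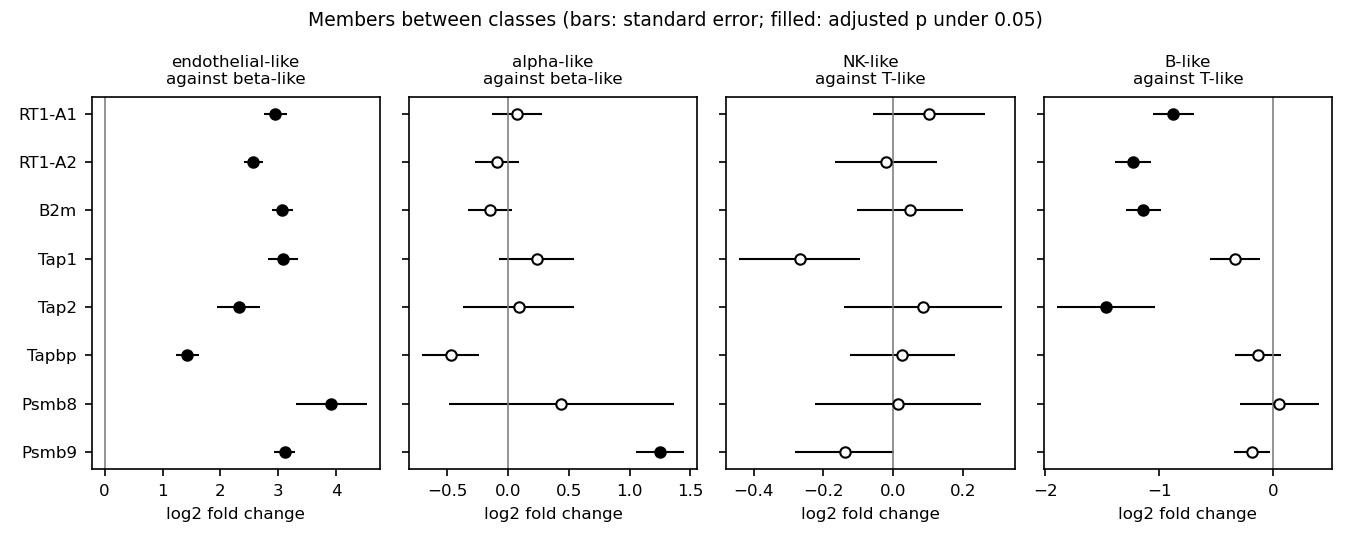
log2 fold change (x axis) of each member (y axis) in the 4 comparisons between classes. Points are edgeR estimates, bars are standard errors and filled points have an adjusted p under 0.05. All 8 members lie right of 0 in endothelial-like against beta-like cells, Psmb9 alone is filled in alpha-like against beta-like cells, and 4 members lie left of 0 and filled in B-like against T-like cells. Psmb8 and Tap2 did not pass the low-count filter within beta-like or B-like cells, so their points in those comparisons cannot be read.

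Old and young rats were compared in 8 classes, each fitted over all its genes, to ask what changed between 2 and 20 months on a normal diet. The 8 members gave 59 tests, of which 3 were called, all higher in old rats and all RT1-A1. Over all genes and classes 0.0823% of tests were called. In beta-like cells RT1-A1 was at 8.38 and 5.49 CPM in the young rats and at 71.3 and 47.3 in the old rats. The groups did not overlap, and the log2 fold change was 2.73 ± 0.41 (SE, edgeR adjusted p = 0.0124). In alpha-like cells it was at 21.2 and 19.7 in the young and at 130 and 125 in the old rats, with a log2 fold change of 3.07 ± 0.34 (edgeR adjusted p = 0.00115). B-like cells had 140 and 151 in the young and 712 and 749 in the old rats, giving 2.48 ± 0.42 (edgeR adjusted p = 0.0223).

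The RT1-A1 levels of the old rats exceeded those of the young rats without overlap in all 8 tested classes, also where no call was made. For all genes this held in 17.6% of pairs of gene and class, and the classes share the same rats. The uncalled log2 fold changes of RT1-A1 were 2.79 in fibroblast-like (edgeR adjusted p = 0.0515), 2.37 in NK-like (0.216), 2.01 in T-like (0.398), 1.82 in endothelial-like (1.00) and 1.64 in macrophage-like cells (0.614). In NK-like cells, for example, the young rats had 345 and 244 CPM and the old rats 1656 and 1207. Of 3035 cells in 1 fibroblast-like cluster 2837 came from 1 library, and the part of this in the fibroblast-like values was not tested. The calls in the islet classes were lost when an estimate of free RNA was subtracted (edgeR adjusted p = 0.0804 in beta-like and 0.4225 in alpha-like cells), while the log2 fold change was 3.72 and 4.02. Over the alternatives run it was 2.49 to 3.72 in beta-like and 2.64 to 4.02 in alpha-like cells. The free RNA estimate took the RT1-A1 level of young rat 1 to 0 in both classes. The alpha-like call was lost under library-size scaling as well (0.137) and the beta-like call without likely doublets (0.0717). The beta-like call was also lost without young rat 1 (edgeR adjusted p = 0.228) or young rat 2 (0.274), and the B-like call without young rat 1 (0.105), old rat 1 (0.0876) or old rat 2 (0.112).

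Leukocyte RNA was measured in the classes that are not leukocytes by the summed level of 41 markers of T, NK, B and macrophage cells. In beta-like cells the sums were 99.6 and 55.9 CPM in the young and 79.3 and 90.4 in the old rats, in alpha-like cells 152 and 94.2 against 129 and 47.1, and in endothelial-like cells 2152 and 1489 against 1854 and 2701. These groups overlapped. In fibroblast-like cells they did not, with 895 and 704 in the young and 2664 and 3368 in the old rats, and their part in the fibroblast-like values was not tested. Of the 41 markers 5 to 17 were at 0 in a beta-like sum. Outside this list, Ptprc did not overlap in beta-like cells (3.02 and 1.91 in the young, 3.86 and 8.62 in the old rats), endothelial-like cells (167 and 128 against 424 and 345) and fibroblast-like cells (45.9 and 41.1 against 138 and 202). Nor did Cd74 in beta-like cells (29.8 and 15.8 against 34.7 and 37.3) and fibroblast-like cells (182 and 210 against 637 and 1114). The part of these genes in the result was not tested.

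The B-like sums of the old rats held more RNA of plasma cell markers. The summed level of 7 such markers was 347 and 128 CPM in the young, 3160 and 2652 in the old and 96.4 and 275 in the HFHF-old rats. Ptprc moved the other way, with 2071 and 2089 in the young, 1283 and 848 in the old and 2121 and 2668 in the HFHF-old rats. Of the 7 plasma cell markers, 1 to 5 were at 0 in a rat. In these sums Tapbp, highest in plasma-like cells, was at 39.9 and 27.9 in the young, 98.9 and 88.7 in the old and 55.1 and 34.0 in the HFHF-old rats. The part of plasma cell RNA in the B-like values of RT1-A1 and the other members, in both comparisons between groups, was not tested.

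The other 7 members were not called in any of the 8 tested classes between old and young rats. Both old rats lay above both young rats in 30 of 59 pairs of member and class, and in 22 of 51 without RT1-A1. For all genes this held in 17.6% of pairs. Among these 59 pairs no member lay below in both old rats, against 23.6% of pairs for all genes. Members and classes share the same 4 rats, so these pairs are not independent. Psmb9 did not overlap in 5 of 8 classes, and Tap1, B2m and Tapbp in 4 of 8. In macrophage-like cells, Psmb9 was at 92.99 and 126 CPM in the young and at 195 and 219 in the old rats. Of 6299 cells in 1 macrophage-like cluster 3999 came from 1 library, and of 3515 in another 3490 did. The part of this in the macrophage-like values was not tested. The exact test of 2 rats against 2 cannot give a p below 0.333.

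HFHF-old and old rats were compared in 7 classes, to ask what the diet changed at the same age. Of 52 tests 2 were called, both RT1-A1 and both lower in HFHF-old rats, while 0.0751% of all tests were called. In beta-like cells RT1-A1 was at 13.6 CPM in HFHF-old rat 1, the only HFHF-old rat with enough cells, against 71.3 and 47.3 in the old rats. It fell by 2.97 on the log2 scale (± 0.51 SE, edgeR adjusted p = 0.0255), a test in which this 1 rat is assumed to vary as the rats of the other groups do, and free RNA subtraction (0.344) or library-size scaling (0.169) ended the call. The call was lost too without young rat 1 (0.0539) or young rat 2 (0.0651), which enter only through the shared estimate of spread. Over the alternatives run the beta-like log2 fold change of RT1-A1 was -3.25 to -2.12. In B-like cells RT1-A1 was at 124 and 245 against 712 and 749, and fell by 2.14 ± 0.42 (edgeR adjusted p = 0.0428). HFHF-old rat 1 gave 12 B-like cells and 9 RT1-A1 UMIs, and without that rat the call was lost (edgeR adjusted p = 0.326). It was lost as well without HFHF-old rat 2 (0.188), old rat 1 (0.0799) or old rat 2 (0.192), under library-size scaling (0.096) and with either of 2 other clustering seeds (0.3145 and 0.197).

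RT1-A1 was lower in both HFHF-old rats than in both old rats in the 6 tested classes with 2 rats in each group. The summed leukocyte markers were lower too in fibroblast-like cells (2118 and 448 in the HFHF-old, 2664 and 3368 in the old rats), overlapped in endothelial-like cells (4519 and 1197 against 1854 and 2701), and were higher in the beta-like cells of HFHF-old rat 1 (281 against 79.3 and 90.4). Their part in the result was not tested. Over all members this held in 22 of 46 pairs, and in 16 of 40 without RT1-A1, against 16.6% of pairs for all genes. Among these 46 pairs no member lay above in both HFHF-old rats, against 23.9% for all genes. B2m and Psmb9 did not overlap in 4 of 6 classes. In T-like cells, B2m was at 4315 and 5552 CPM in the HFHF-old and at 5579 and 8486 in the old rats, and Psmb9 at 171 and 257 against 320 and 358. Digestive enzyme transcripts, which T cells do not make, took 1.60% of the T-like UMIs in HFHF-old rat 1 and 0.066% in HFHF-old rat 2, and 0.639% and 0.313% in old rats 1 and 2. Their part in the result was not tested.

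**Figure D3:**
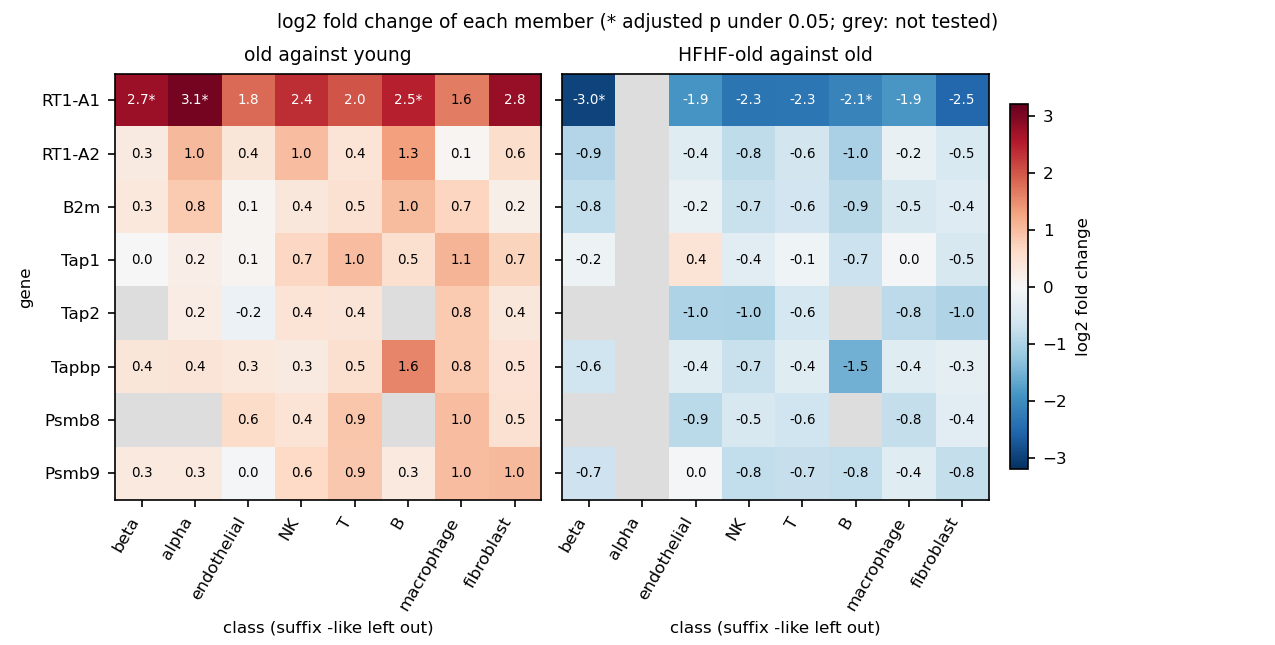
log2 fold change of each member (rows) in each class (columns) for old against young and HFHF-old against old rats, red for higher and blue for lower. Stars mark an adjusted p under 0.05 and grey cells were not tested. The row of RT1-A1 runs from 1.64 to 3.07 in the first panel and from -2.97 to -1.87 in the second, and holds all the stars.

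RT1-A1 separated the 2 old rats from the other 4 in most classes. Both old rats were above every other rat in 17 of 18 classes that had both old rats. The same was true of Psmb9 in 6 of 18 classes, of RT1-A2 and B2m in 5, of Psmb8 and Tap1 in 4, of Tapbp in 2 and of Tap2 in 1. No share over all genes is given for this order. The 2 old rats also differed from each other. RT1-A2 was higher in old rat 1 than in old rat 2 in 18 of 18 classes, and Tap2 in 15 of 18, while B2m was higher in old rat 2 in 17 of 18. In endothelial-like cells, RT1-A2 was at 1474 in old rat 1 and 748 in old rat 2, and the other 4 rats lay between 686 and 1032.

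**Figure D4:**
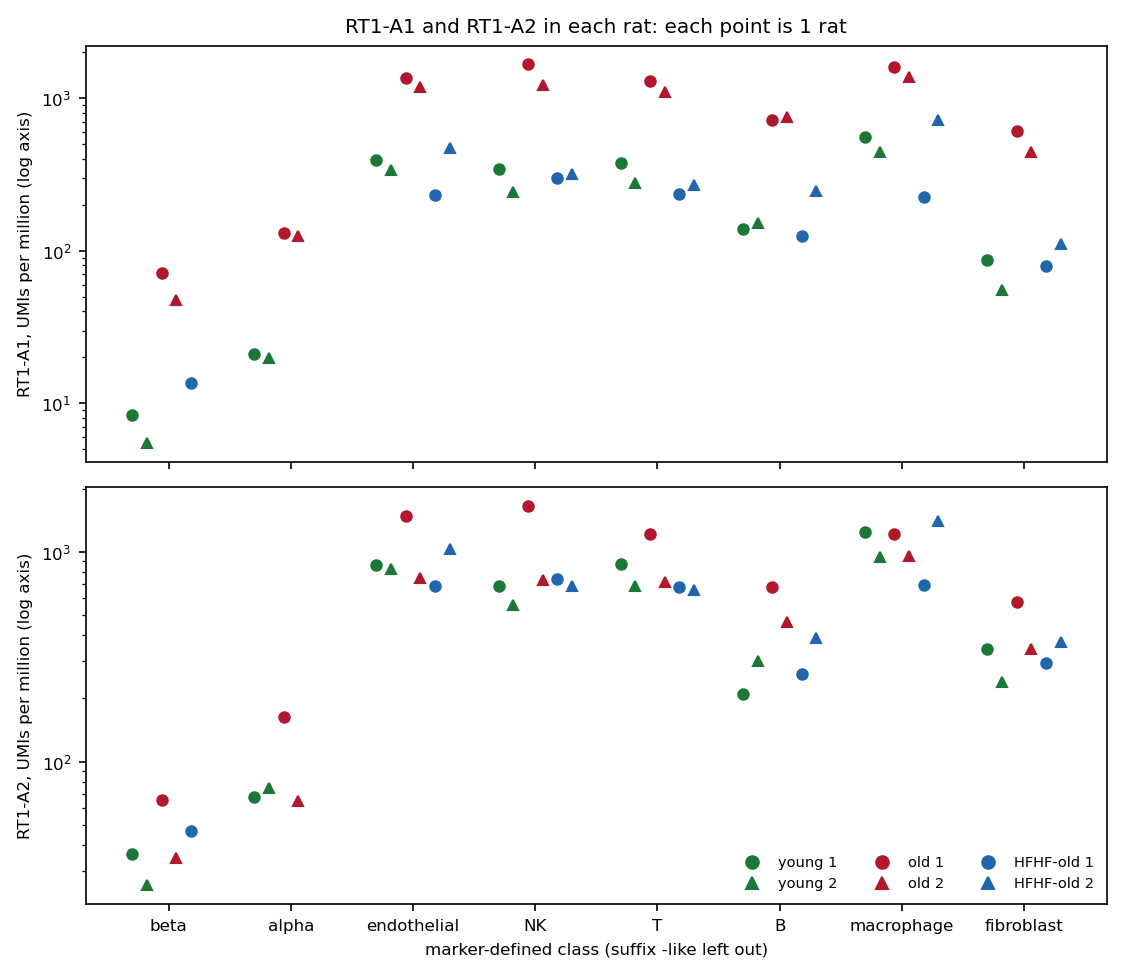
CPM (log axes) of RT1-A1 and RT1-A2 in 8 classes, 1 point for each rat. The RT1-A1 points of the 2 old rats lie above the other rats in each class, as with 71.3 and 47.3 against 5.49 to 13.6 in beta-like cells. In the RT1-A2 panel old rat 1 lies above old rat 2 in each class.

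Because RT1-A1 and RT1-A2 are nearly alike around their start sites, the share of RT1-A1 in the UMIs of both genes was compared between rats. Their transcripts were not compared. Over all cells it was 29.8% and 30.4% in the young rats, 53.8% and 60.5% in the old rats, and 24.7% and 30.8% in the HFHF-old rats. The 95% Wilson intervals were at most 0.84 percentage points wide and cover counting error only. In classes with at least 100 UMIs of both genes it ran from 44.3% to 56.9% in old rat 1 and from 52.7% to 67.3% in old rat 2. It varied more between the classes of the young rats, from 17.4% to 40.0% and from 17.6% to 36.7%, and ran from 21.1% to 28.7% and from 22.7% to 38.6% in the HFHF-old rats. In beta-like cells it was 18.8% and 17.6% in the young, 52.2% and 57.7% in the old rats and 22.6% in HFHF-old rat 1. In NK-like cells it was 33.3% and 30.5%, 50.2% and 62.3%, and 28.6% and 31.6%.

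**Figure D5:**
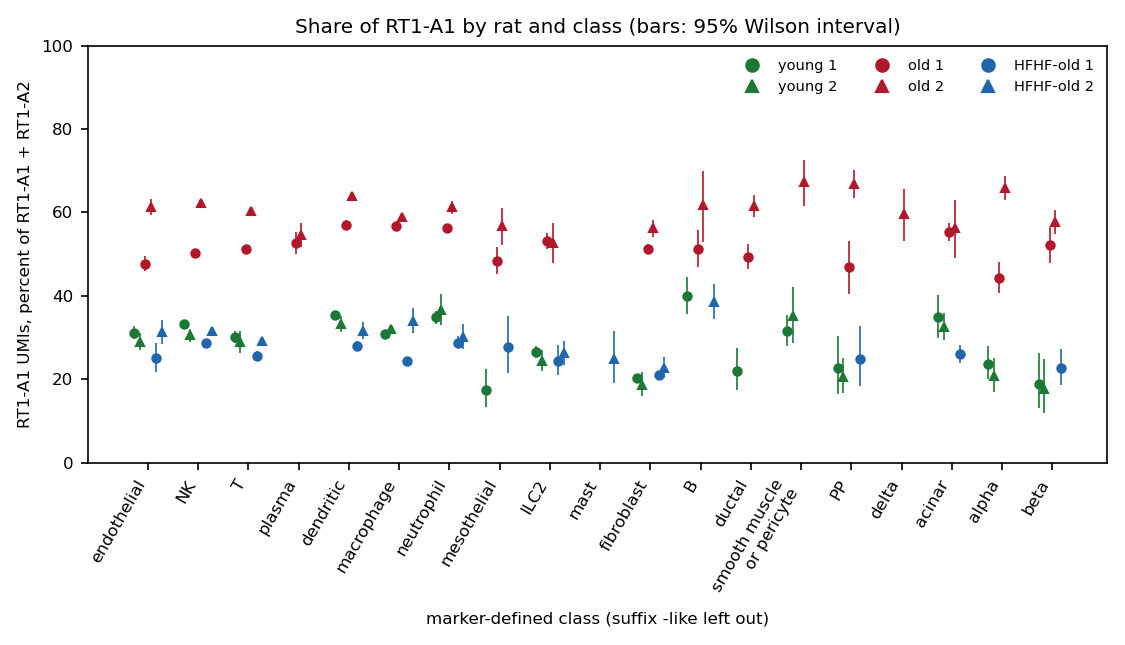
Share of RT1-A1 UMIs in RT1-A1 plus RT1-A2 UMIs (y axis, percent) in each class with at least 100 such UMIs, 1 point for each rat with its 95% Wilson interval. The 2 old rats lie between 44.3% and 67.3% in every class and the other 4 between 17.4% and 40.0%.

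With both genes summed and tested as 1 gene, no class was called between groups. The sum was still higher in both old rats than in every other rat in 16 of 18 classes that had both old rats. The share of all genes with this order is not given. The summed log2 fold change of old against young rats was 1.15 in beta-like (edgeR adjusted p = 0.951), 1.78 in alpha-like (0.0816) and 1.84 in B-like cells (0.0938). For HFHF-old against old rats it was -1.71 in beta-like (0.518) and -1.58 in B-like cells (0.146). Reads were assigned to a reference from another strain than these rats, and a read from an allele that the reference lacks can be counted for the neighbouring gene or not at all. Whether the rats carried different RT1 alleles was not tested, and with 2 rats a group an allele of the old rats cannot be told apart from age or diet.

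Genes of the wider pathway were read from lists by role. Between groups they gave 2 calls in 426 tests (0.469%) for old against young and 1 in 384 (0.26%) for HFHF-old against old rats, where all genes gave 0.0823% and 0.0751%. Between old and young rats 0 were called of 90 tests of other class I heavy chains, 24 of the inducible proteasome and its activators and 24 of the constitutive subunits. Of 81 tests of transcription factors of class I genes, 58 of interferon ligand, receptor and signalling genes and 102 of interferon-stimulated genes, 0 were called as well. HFHF-old against old rats gave 0 in the same lists, over 82, 21, 21, 72, 51 and 96 tests. The calls were all among loading chaperones in B-like cells, a list with 47 and 41 tests. Calr, a chaperone of new heavy chains, rose in old against young rats (log2 fold change 2.58, edgeR adjusted p = 0.0179), as did Hspa5 (2.33, edgeR adjusted p = 0.0297), and Calr fell by 2.33 in HFHF-old against old rats (edgeR adjusted p = 0.0282). These are the sums in which the plasma cell markers were higher in the old rats, and the part of that in these calls was not tested.

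Between endothelial-like and beta-like cells many list genes are near 0 in beta-like cells and passed the low-count filter through endothelial-like cells alone, so counts are given for genes that passed within both classes, of which 32.7% were higher and 33.7% lower. All 8 such heavy chains of 13 tested rose, with the smallest adjusted p-values for RT1-CE5 (log2 fold change 3.92 ± 0.21) and RT1-S3 (3.72 ± 0.21). Of 17 interferon-stimulated genes 6 passed within both, and 5 of these rose, among them Bst2 (5.18). All 6 such interferon ligand, receptor and signalling genes rose, among them Ifngr1 (3.00), and of 8 transcription factors 6 rose and 1 fell. The class I transactivator Nlrc5, at 0.61 CPM in beta-like cells, was not among those 8. Psme1 (1.37), Psmb10 (1.33) and Psme2 (0.56) of the inducible proteasome all rose. The constitutive subunits replaced in the immunoproteasome, Psmb5 (-1.23), Psmb6 (-0.64) and Psmb7 (-0.40), all fell under this scaling but were higher in endothelial-like cells in mean CPM, at 120 against 76.8, 81.5 against 33.9 and 72.5 against 24.96. Among loading genes 2 of 6 rose, with the trimming peptidase Erap1 at 1.52. The other 4 fell, among them the general chaperone Hspa5 (-2.48) and Pdia3 (-1.46). In mean CPM Hspa5 was lower as well (212 against 312), but Pdia3 was higher (277 against 199).

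In alpha-like against beta-like cells, Psme1 (0.87) and Psme2 (0.56), which activate the immunoproteasome, rose with Psmb9, and Psmb10 was not called. Of the 9734 genes that passed within both of these classes, 13.4% were higher and 14.2% lower. Of the list genes that did so, 1 of 8 other heavy chains rose (RT1-S3, 0.91) and 0 of 8 transcription factors. Of 6 interferon ligand, receptor and signalling genes 1 rose, the kinase gene Jak1 (0.89), as did 1 of 3 constitutive subunits (Psmb6, 0.58). Of 5 interferon-stimulated genes 0 rose and 1 fell (Ifi27, -1.77). Of 6 loading genes 3 fell, Canx (-0.96), Hspa5 (-0.97) and Pdia3 (-0.72), though none of these 3 was lower in alpha-like cells in mean CPM (167 against 161, 315 against 312 and 259 against 199). In B-like against T-like cells, where of the genes that passed within both classes 16.7% were lower and 20.6% higher, 5 of 10 such heavy chains fell and 0 rose, with RT1-N2 at -2.01, RT1-CE10 at -1.05 and RT1-CE1 at -1.08. Of 5 interferon ligand, receptor and signalling genes 4 fell, among them the interferon gamma receptor chain Ifngr1 (-2.13) and the kinase gene Jak2 (-1.77), and 0 rose. Of 8 transcription factors 4 rose, among them Stat2 (1.12) and Irf8 (1.47), and 2 fell. Of 8 interferon-stimulated genes 2 rose and 2 fell, Gbp5 (-1.84) and Ifi27 (-1.69), and of 5 loading genes 2 fell, Erap1 (-0.84) and Canx (-0.37). In NK-like against T-like cells 11.3% of all genes were higher and 16.0% lower. Of 8 interferon ligand, receptor and signalling genes 1 rose there, Ifngr1 (0.99). The 3 that fell were Ifngr2 (-2.34), Ifng (-2.60) and the signalling inhibitor gene Socs1 (-0.46). In mean CPM Ifngr2 was at 4.04 in NK-like, 18.65 in T-like and 65.35 in macrophage-like cells. The part of the T-like cluster led by phagocyte genes in the list values of both comparisons with T-like cells was not tested.

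Over the 19 classes, each gene's profile had a Pearson r with the mean of the other 7 of 0.969 for RT1-A2, 0.963 for Psmb9, 0.953 for B2m, 0.944 for RT1-A1, 0.920 for Tap1, 0.862 for Psmb8, 0.836 for Tap2 and 0.774 for Tapbp. Classes share libraries and the hormone share of UMIs, so these values are descriptions. Among 7832 other genes, the profiles closest to the members' mean were those of RT1-CE10 (r = 0.989), RT1-CE4 (0.976), RT1-CE1 (0.964), Rap1b (0.949) and RT1-T24-4 (0.948). RT1-CE10, another class I heavy chain, was at 49.9 CPM in beta-like, 112 in alpha-like, 1248 in endothelial-like, 1132 in NK-like and 1036 in T-like cells.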

How the data were processed

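Per the labels, pancreata were digested with collagenase P, the cells at the interface of a density gradient were collected and libraries were made with the 10x Genomics 3′ kit. The authors aligned reads with Cell Ranger, and the submitters' processing notes name Rnor_6.0; the deposited values are whole-number counts of UMIs per gene and barcode. Cells with at least 200 genes and at most 25% mitochondrial UMIs were kept, without the top 1% by genes. They were clustered (2000 variable genes without members, RT1 or pathway genes, 30 components, 15 neighbours, Leiden resolution 1) and named from marker lists. Doublets stayed in. The floating-point setting was fixed, so that clusters repeat exactly, after results under another had been seen. This changed the called members of 3 comparisons. More were called in HFHF-old against old rats, and fewer in NK-like against T-like and in B-like against T-like cells. UMIs were summed per rat and class (at least 10 cells) and tested with edgeR 4.0.16 (TMM, filterByExpr, Benjamini-Hochberg over all genes), with DESeq2 1.42.0 as an alternative. The scripts were tested on simulated data. All 8 members are named, and of each pathway list called genes among the 4 with the smallest adjusted p-values in a test, with some of these, and genes that passed the filter through 1 class alone, not reported here. Members and lists were chosen with earlier results of these data known. P-values measure the spread between rats.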

Additional observations from a re-analysis of the deposited data

Results flagged for a closer look

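The 17123 cells in clusters that could not be named enter no comparison by class above, and only the RT1-A1 share over all cells includes them. In them alone, the RT1-A1 share was flagged because it stood above that of the same cells in the young rats. It was 55.06% in old rat 1 and 58.74% in old rat 2, against 28.57% and 30.23% in the young rats and 26.29% and 24.42% in the HFHF-old rats. The 95% Wilson intervals of old rat 1 (54.19% to 55.93%) and old rat 2 (57.79% to 59.67%) did not reach those of the other rats. They cover counting error only and not the spread between rats. These clusters stayed unnamed for too few markers, markers of another class, few UMIs or cells mostly of 1 library, so mixtures of cells can be among them.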

How the results depend on the processing

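Of the values of named genes recomputed under alternatives, 665 kept their direction and their side of the threshold, 38 passed it newly, 29 no longer passed it and 18 reversed. In alpha-like against beta-like cells library size alone turned B2m (1.00), RT1-A2 (1.06) and Tapbp (0.64), all called there. The other reversals were never called. In the same comparison RT1-A2 was at 0.007 with the first other seed, and RT1-A1 summed with RT1-A2 at -0.0363; leaving out 1 rat gave -0.13 to 0.21 for RT1-A1, -0.24 to 0.0997 for RT1-A2 and -0.35 to 0.60 for Tap2. In B-like against T-like cells Psmb8 (0.05) was at -0.0005 without a filter on low counts, -0.12 without likely doublets, -0.13 at Leiden resolution 2, -0.12 with hormone and enzyme genes taken out, -0.35 and -0.12 with the other seeds, -0.32 without the T-like cluster led by phagocyte genes and -0.17 to 0.17 on leaving out 1 rat. In NK-like against T-like cells the 5 members not named singly lay between -0.02 and 0.09 and turned sign, uncalled, in 32 of 89 refits. Called members in old against young rats (3) were 7 by DESeq2 and 7 without a filter on low counts, where calls over all genes went from 0.0823% to 0.959% and 1.34%, and leaving out 1 rat gave 1 to 4 (all genes 0.0932% to 0.977%). In HFHF-old against old rats (2) they were 6 by DESeq2, 6 without a filter (all genes from 0.0751% to 0.531% and 1.12%), 0 under library size alone and 1 under either of the 2 other clustering seeds (added after seeing the data), and leaving out 1 rat gave 1 to 2 (all genes 0.096% to 0.874%). In that comparison all genes gave 0.0698% under library size alone and 0.0629% and 0.0759% with the 2 other seeds. Alpha-like against beta-like cells (1) gave 7 under library size alone, where calls over all genes went from 25.3% to 68.7%. NK-like against T-like cells (0) gave 1 without likely doublets, 1 at Leiden resolution 2, 2 with the first other seed and 2 without the T-like cluster led by phagocyte genes, the last 2 added after seeing the data. Calls over all genes went from 27.4% to 25.8%, 26.9%, 25.5% and 24.8%, in the same order. B-like against T-like cells (4) gave 2 with free RNA subtracted, where calls over all genes went from 32.3% to 28.7%. In endothelial-like against beta-like cells the 6 members that passed the low-count filter within both classes were called under every alternative that tested them. The labels give same-numbered rats a shared number and nothing more, and whether they share a source was not tested. The correlations of their deviations from the group means ran from -0.183 to 0.274 over classes. A fit with the replicate block gave 2 called members in old against young (all genes 0.0458%) and 1 in HFHF-old against old rats (all genes 0.0282%). The calls it ended were those of RT1-A1 in B-like cells (edgeR adjusted p = 0.0547 and 0.0845). The cause of these moves was not tested. With 2 rats a group, sparse genes such as Psmb8 and Tap2, and few beta-like, alpha-like or B-like cells in HFHF-old rats, the depth limits what can be called.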

Other observations

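Class II genes, which present peptides from outside the cell, were looked at in whole libraries after their values had been seen. RT1-Bb was at 1529 and 652 counts per 1000000 UMIs in the old rats and at 16.4 to 36.8 in the other 4. RT1-Db1 was at 2529 and 2030 in the old rats and at most 847 in the others, and RT1-Da at 2202 and 1970 against at most 1123. Of 9 class II genes counted 6, these 3 included, were higher in both old rats than in every other rat. RT1-Db2 (17.9 and 8.62 against up to 18.7), RT1-DOb and RT1-DMa were not. Nor was RT1-Ha, which is outside these 9 (2.77 and 2.35 against up to 2.52). The share of all genes with this order is not given. RT1-T24-4, a class I gene, was at 200 in old rat 1 and at 17.6 to 54.2 in the other 5. RT1-S3, another class I gene, was at 169 and 116 in the old rats and at most 103 in the others. RT1-Ba was at 1469 and 1064 in the old rats and at most 582 in the others. The libraries differ in their makeup. Of 17443 cells of young rat 1, 6120 were macrophage-like, 304 dendritic-like and 193 B-like. These were 1854, 100 and 28 of 10283 cells in young rat 2. In old rat 1 they were 1706, 103 and 42 of 7381, and in old rat 2 3157, 758 and 19 of 16388. HFHF-old rat 1 had 3833, 252 and 12 of 11990, and HFHF-old rat 2 had 69, 85 and 118 of 11716. The part of this makeup in the values was not tested.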
